A study of Mus musculus with 4 samples.

Results

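The transcripts of 10 cytokine genes of helper T cells, Ifng, Il2, Il4, Il10, Il13, Il17a, Il17f, Il21, Il22 and Csf2, were compared between WT and Mek1/2-tKO cells, the latter from mice with a T-cell-specific deletion of the genes of the kinases MEK1 and MEK2. They were taken by gene symbol from the 54752 genes counted. All 10 were found and passed the filter for low counts, Il17f through the Mek1/2-tKO libraries alone. The data are RNA-seq of 2 WT and 2 Mek1/2-tKO libraries, made from splenic naïve CD4+ T cells that were kept under Tfh conditions for 3 days and sorted for viable cells. Mek1/2-tKO mice carry Cd4-Cre and homozygous floxed alleles (fl/fl) of both Map2k1 and Map2k2, so that the Cre is driven by the Cd4 promoter and acts in cells that express or once expressed Cd4, and WT mice were littermates. Both genotypes were on the C57BL/6 background, and ages were not given in the sources used here. All cultures held plate-bound anti-CD3, anti-CD28, IL-6 and neutralizing antibodies to TGF-β, IL-4, IFN-γ and IL-2, so the proteins of Il2, Ifng and Il4 were blocked in both genotypes while their transcripts were counted. The sources do not say whether the libraries of a genotype came from separate mice, and the p values then measure only the spread between these libraries.

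Helper T cells are grouped by the cytokines they secrete. IFN-γ marks Th1 cells, IL-4 and IL-13 mark Th2 cells, IL-17A, IL-17F and IL-22 mark Th17 cells, and IL-21 marks Tfh cells, which help B cells. IL-2 is made early after activation of the T-cell receptor, which switches on NFAT, AP-1 and NF-κB, and AP-1 is fed in part by the MEK-ERK pathway. Several of these cytokines are also made by other lymphocytes, IFN-γ by NK and CD8 T cells and IL-17A by gamma-delta T cells.

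The 10 genes lie at 6 loci on 4 chromosomes of GRCm38. Il17a (chr1:20730905-20734496) and Il17f (chr1:20777146-20790617) are 42.6 kb apart, and Il10 (chr1:131019845-131024974) is elsewhere on the same chromosome. Il2 (chr3:37120523-37125959) and Il21 (chr3:37222759-37232636) are 96.8 kb apart. Il22 (chr10:118204942-118210047) and Ifng (chr10:118441046-118445892) are 231 kb apart. Il4 (chr11:53602982-53618669) and Il13 (chr11:53631324-53634702) are 12.7 kb apart, and Csf2 (chr11:54247271-54249667) is 612.6 kb from Il13.

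The 250 bases before the start of 4 of these genes are shown because they hold the pair that fell together, Il2 and Il21, and the pair that rose together, Il17a and Il17f. The sequences are those of RefSeq on GRCm38.p6, written 5′ to 3′ on the strand of the gene, at chr3:37125955-37126204 (minus strand) for Il2, chr3:37232637-37232886 (minus) for Il21, chr1:20730655-20730904 (plus) for Il17a and chr1:20784271-20784520 (minus) for Il17f. The Il17f stretch lies inside the span counted for Il17f, because the RefSeq start differs from the outer end of that span. Capitals mark the letters GGAAAA, the core of NFAT sites, or TGANTCA, a loose form of the AP-1 motif with any middle base, on either strand.
Il2: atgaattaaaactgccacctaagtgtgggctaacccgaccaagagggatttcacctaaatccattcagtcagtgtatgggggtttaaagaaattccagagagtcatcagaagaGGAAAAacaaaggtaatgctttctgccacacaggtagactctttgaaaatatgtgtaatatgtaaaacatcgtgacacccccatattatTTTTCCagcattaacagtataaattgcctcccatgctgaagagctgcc
Il21: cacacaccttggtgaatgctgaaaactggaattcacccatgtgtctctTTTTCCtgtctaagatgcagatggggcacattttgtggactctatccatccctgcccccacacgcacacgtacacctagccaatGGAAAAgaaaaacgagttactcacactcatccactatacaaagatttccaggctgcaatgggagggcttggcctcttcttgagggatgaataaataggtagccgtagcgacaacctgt
Il17a: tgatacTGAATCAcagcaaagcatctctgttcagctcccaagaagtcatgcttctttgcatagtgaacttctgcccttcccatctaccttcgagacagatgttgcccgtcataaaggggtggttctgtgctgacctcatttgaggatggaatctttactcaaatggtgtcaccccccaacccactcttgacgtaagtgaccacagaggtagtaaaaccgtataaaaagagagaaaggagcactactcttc
Il17f: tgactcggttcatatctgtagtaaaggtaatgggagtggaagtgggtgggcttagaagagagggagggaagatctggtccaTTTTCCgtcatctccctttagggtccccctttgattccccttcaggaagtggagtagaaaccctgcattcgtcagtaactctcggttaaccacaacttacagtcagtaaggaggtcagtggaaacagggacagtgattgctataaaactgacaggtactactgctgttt

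Il2 and Il21 each held the GGAAAA letters at 2 places, Il17f at 1 place, and Il17a held TGAATCA, a match to TGANTCA, instead. The AP-1 consensus has C or G in the middle, so TGAATCA matches only the loose form. Over windows of 300 bases (250 before and 50 after the start), 9 of the 10 genes matched a RefSeq entry, all but Il10. GGAAAA was found in 5 of these 9 genes (Il2, Il4, Il13, Il17f and Il21) and in 23.4% of all 32851 promoter windows. Il4 had 2 windows, one with 0 and one with 4 matches, so the count per gene and the share per window are not the same measure. TGANTCA was found in 1 of 9 and in 7.8% of all windows. Of 5 motifs searched, these 2 are given here. A match is a run of letters and not a site shown to be bound, and genes with GGAAAA included both risen and fallen ones.

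Deletion was checked first on the targeted genes. Map2k1, which encodes MEK1, had 182 and 187 CPM (counts scaled to a common library size by edgeR's TMM) in WT, and the Mek1/2-tKO libraries had 97.9 and 105 CPM, a log2 fold change of -0.86 (SE 0.08, adjusted p = 1.29e-06, edgeR quasi-likelihood test). Map2k2, which encodes MEK2, had a log2 fold change of 0.15 (SE 0.08, adjusted p = 0.126, edgeR) and did not pass, and gene-level counts do not separate full transcripts from those that lack the floxed exons. The libraries held 16330802 to 18931090 counts. The threshold for a call was a 1.5-fold difference with an adjusted p below 0.05 in edgeR's quasi-likelihood test over 14330 genes. An exact permutation test of 2 against 2 libraries gives a two-sided p of 0.333 at best, and the calls rest on a spread modelled across all genes.

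Of the 10 cytokine genes, 7 were higher, 2 were lower and 1 was not called in Mek1/2-tKO compared with WT cells. Among all genes tested, 19.3% were called higher and 16.4% lower. Ifng, Il17a, Il17f, Il22 and Csf2 rose by more than 10-fold, as did 2.21% of all genes tested. Il10 and Il13 rose less, Il2 and Il21 fell, and Il4 was the gene not called. The CPM of the genotypes did not overlap for any of the 10, which was also true of 78.3% of all genes tested. In bulk RNA, more cells that express a gene and more RNA per cell cannot be told apart.

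**Figure D1:**
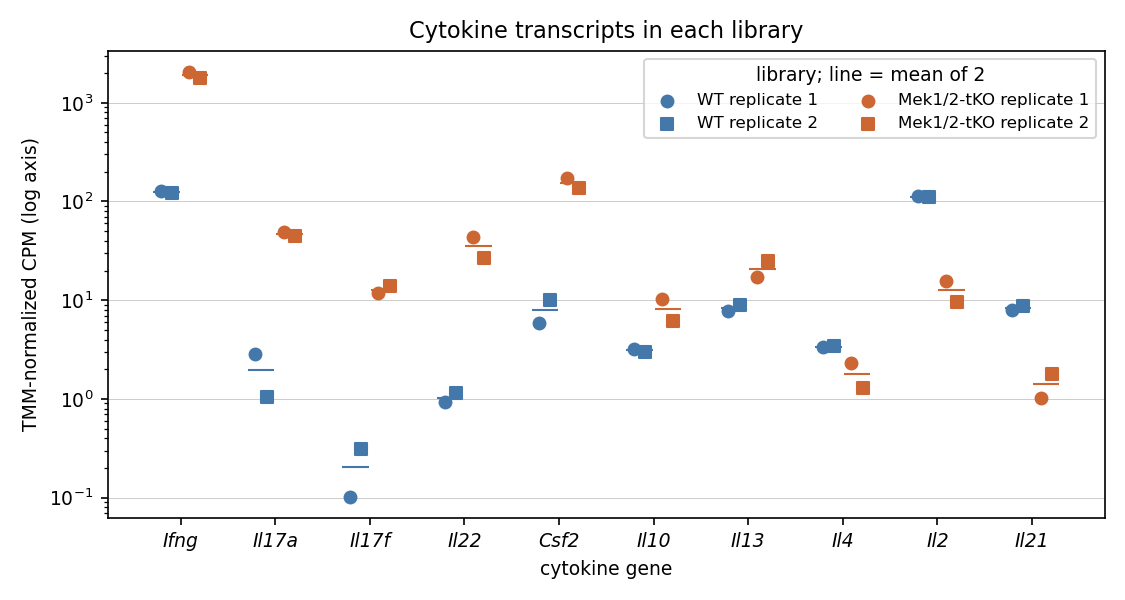
TMM-normalized CPM of the 10 cytokine genes (log axis) in each library, with blue for WT, orange for Mek1/2-tKO, circles for replicate 1, squares for replicate 2 and a line at the mean of the 2 libraries. The orange points lie above the blue ones for 7 genes and 2 others fell, Il2 from 113 and 111 to 15.6 and 9.63 CPM and Il21 from 7.95 and 8.76 to 1.03 and 1.81 CPM, while Il4, with lower orange points, was not called.

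Ifng encodes IFN-γ, the activator of macrophages and of antigen presentation. It had 127 and 121 CPM in the WT libraries and 2051 and 1771 CPM in the Mek1/2-tKO libraries. The mean rose from 124 ± 4.32 to 1911 ± 198 CPM (SD, n = 2), which is 15.4-fold, or 3.95 on the log2 scale (SE 0.10, 95% interval 3.74 to 4.15, adjusted p = 1.8e-12, edgeR). By level per exon length (RPKM), Ifng moved from rank 742 and 795 among all genes in WT to rank 92 and 94 in Mek1/2-tKO libraries. The difference between genotypes was far larger than that between the libraries of a genotype. Exons of Gm49751 cover 25.95% of the exon length of Ifng on the same strand, and Gm49751 itself had 27 and 22 counts in WT and 114 and 121 counts in Mek1/2-tKO libraries, against 2331 to 33290 counts of Ifng.

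The genes of the Th17 group were low in WT and rose together. Il17a, which encodes the neutrophil-recruiting IL-17A, had 2.87 and 1.04 CPM in WT and 48.6 and 45.1 CPM in Mek1/2-tKO libraries. In proportion to their level, the WT libraries differed more from each other than the Mek1/2-tKO libraries did. The rise was 23.9-fold, a log2 fold change of 4.58 (SE 0.26, 95% interval 4.02 to 5.13, adjusted p = 7.49e-09, edgeR), and it was 44.8-fold without WT replicate 1 and 16.3-fold without WT replicate 2.

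Il17f encodes the close relative IL-17F, which can pair with IL-17A. Its counts were 2 and 6 in WT and 183 and 260 in Mek1/2-tKO libraries, or 0.103 and 0.311 CPM against 11.8 and 13.8 CPM. It passed the filter for low counts through the Mek1/2-tKO libraries alone, so its place among the called genes rests on the group where it is high. The log2 fold change was 5.91 (SE 0.39, 95% interval 5.07 to 6.75, adjusted p = 3.45e-08, edgeR). The ratio of the summed counts, scaled by library, was 62.6 with an exact 95% interval of 31.5 to 146 for counting error only, since WT held 8 counts in all. Without WT replicate 2 the fitted fold was 117.2 in place of 60.3, and without WT replicate 1 it was 40.3.

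Il22 encodes IL-22, which acts on epithelial cells. It had 0.923 and 1.14 CPM in WT and 44.1 and 26.5 CPM in Mek1/2-tKO libraries. The rise was 33.9-fold, or 5.08 on the log2 scale (SE 0.29, 95% interval 4.46 to 5.71, adjusted p = 8.37e-09, edgeR). The Mek1/2-tKO libraries differed from each other, but both lay far above WT. Of the 150-base windows of the Il22 exons, 7.7% also occur in Iltifb, a near copy. Iltifb had 0 counts in WT and 3 and 13 counts in Mek1/2-tKO libraries. Because only uniquely mapped reads were kept, a small part of the Il22 reads could be missing from its counts.

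Csf2 encodes GM-CSF, the growth factor of myeloid cells. It had 5.95 and 10.1 CPM in WT and 174 and 137 CPM in Mek1/2-tKO libraries. This was a 19.4-fold rise and a log2 fold change of 4.28 (SE 0.19, 95% interval 3.88 to 4.68, adjusted p = 5.56e-10, edgeR), and 0.879% of all genes tested had a log2 fold change of at least this size. Leaving out WT replicate 1 or WT replicate 2, which differ most in proportion to their level, gave 15.4-fold and 26.1-fold.

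Il10 and Il13 rose by 2.61-fold and 2.52-fold. Il10 encodes the anti-inflammatory IL-10 and had 3.23 and 3.01 CPM in WT and 10.2 and 6.17 CPM in Mek1/2-tKO libraries. Its log2 fold change was 1.38 (SE 0.29, 95% interval 0.75 to 2.02, adjusted p = 0.00127, edgeR). Il13 encodes the Th2 cytokine IL-13 and had 7.69 and 8.96 CPM in WT and 17.0 and 24.8 CPM in Mek1/2-tKO libraries. Its log2 fold change was 1.33 (SE 0.20, 95% interval 0.90 to 1.77, adjusted p = 7.9e-05, edgeR). Both had a wide spread in Mek1/2-tKO, with replicate 1 the higher for Il10 and replicate 2 the higher for Il13.

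Il4, the neighbour of Il13 and the gene of the founding Th2 cytokine, was not called. It had 3.33 and 3.42 CPM in WT and 2.32 and 1.28 CPM in Mek1/2-tKO libraries, from 65, 66, 36 and 24 counts. The log2 fold change was -0.92 (SE 0.40, 95% interval -1.78 to -0.06), and the adjusted p of 0.0665 from edgeR missed the threshold. A likelihood-ratio test (adjusted p = 0.0368, edgeR), scaling by library size alone (adjusted p = 0.0411, edgeR) and leaving out Mek1/2-tKO replicate 1 (log2 fold change -1.40, adjusted p = 0.0162, edgeR) called it lower, and without Mek1/2-tKO replicate 2 the log2 fold change was -0.55 (adjusted p = 0.293, edgeR). The difference between the responses of Il4 and Il13 was not tested.

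Il2 and Il21, both shown above, fell. Il2 encodes the T-cell growth factor IL-2 and had 113 and 111 CPM in WT and 15.6 and 9.63 CPM in Mek1/2-tKO libraries. The fall was to 0.111 of the WT level, a log2 fold change of -3.17 (SE 0.16, 95% interval -3.52 to -2.82, adjusted p = 2.71e-09, edgeR). The WT libraries were close to each other and the Mek1/2-tKO libraries were both low. Il21, whose product supports germinal centre B cells, had 7.95 and 8.76 CPM in WT and 1.03 and 1.81 CPM in Mek1/2-tKO libraries. It was 5.77-fold lower, a log2 fold change of -2.53 (SE 0.32, 95% interval -3.21 to -1.84, adjusted p = 1.65e-05, edgeR). In Mek1/2-tKO it was left with 16 and 34 counts.

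**Figure D2:**
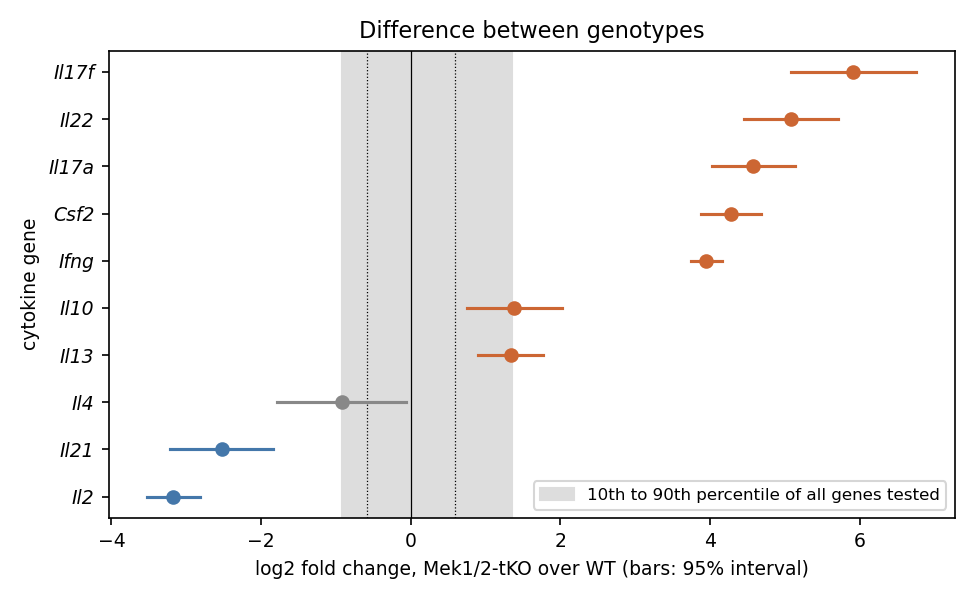
Log2 fold change of each cytokine gene (Mek1/2-tKO over WT, points) with its 95% interval from edgeR (bars), orange for called higher, blue for called lower and grey for not called. The grey band spans the 10th to 90th percentile of all genes tested, from -0.92 to 1.36, and the dotted lines mark a 1.5-fold change. The orange points are at or right of 1.33, Il4 lies at -0.92, and Il21 and Il2 are at -2.53 and -3.17.

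Levels of different genes were compared per exon length. In WT, Il2 (97.2 and 99.0 RPKM) and Ifng (93.3 and 98.0 RPKM) led and overlapped, and Csf2 followed with 7.43 and 12.6 RPKM, and then by their means Il13 with 6.91, Il4 with 2.75, Il10 with 2.38, Il17a with 1.67, Il21 with 1.59, Il22 with 0.929 and Il17f with 0.102 RPKM. Neighbours in this order whose libraries overlapped were Il2 and Ifng, Csf2 and Il13, Il10 and Il17a, and Il17a and Il21. In Mek1/2-tKO, Ifng led with a mean of 1476 RPKM, then Csf2 with 194, Il17a with 40.0, Il22 with 31.8, Il13 with 17.4, Il2 with 11.0, Il17f with 6.34, Il10 with 6.25, Il4 with 1.47 and Il21 with 0.270 RPKM. Here Il17a overlapped with Il22 and Il17f with Il10.

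The make-up of the cytokine transcripts changed with these levels. Ifng made up 44.4 and 42.5% of the summed RPKM of the 10 genes in WT and 82.2 and 83.2% in Mek1/2-tKO libraries. Il2 went from 44.8 and 44.3% to 0.706 and 0.512%, and Csf2 from 3.37 and 5.73% to 11.3 and 10.4%. The summed level without Ifng was 122.8 and 126.0 RPKM in WT and 342.5 and 275.4 RPKM in Mek1/2-tKO libraries. All 10 genes took 0.0281 and 0.0276% of the counts of the WT libraries and 0.226 and 0.202% of those of the Mek1/2-tKO libraries.

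**Figure D3:**
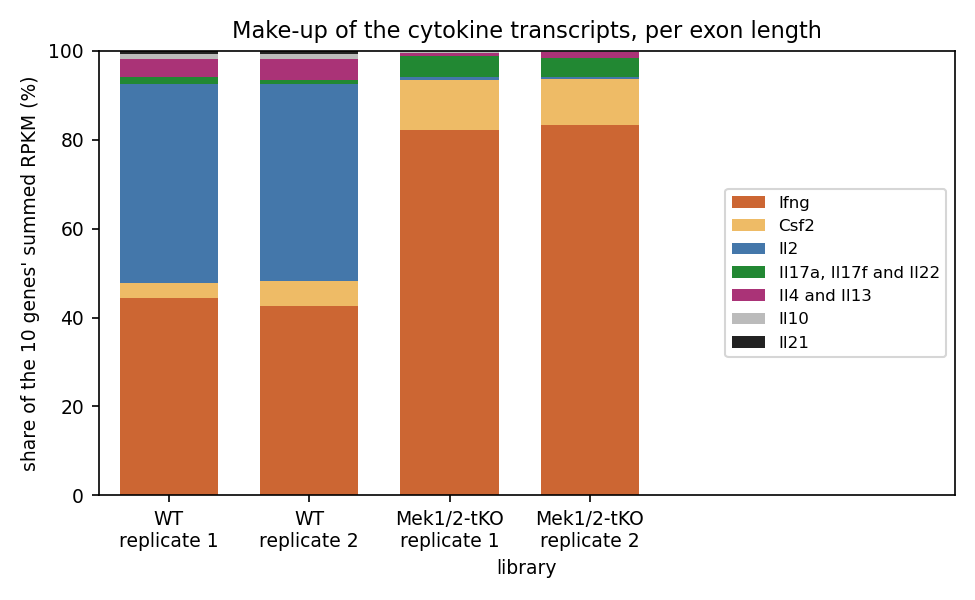
Share of each cytokine gene or group in the summed RPKM of the 10 genes (y axis, %), one bar per library. In WT the bars are split between Ifng (44.4 and 42.5%) and Il2 (44.8 and 44.3%), and in Mek1/2-tKO Ifng fills 82.2 and 83.2% of them.

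The profiles nearest to those of the genes with the largest rise and fall were searched over the 4 libraries. By Euclidean distance between deviations of log2 CPM from the mean, Cyp4f18 (0.45), Igkv4-86 (0.46) and Ifit1bl1 (0.70) were nearest to Il17f. Bnip3 (0.11), Fads6 (0.22) and Stra6 (0.24) were nearest to Il2. These distances rest on 4 libraries, which share the contrast between the genotypes.

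Other T-cell cytokine genes moved in both directions. Of 17 listed, 14 were tested, and 6 were higher and 2 lower, with a median log2 fold change of 0.36, against 0.02 over all genes tested. The higher ones were led by Il9 (1.49 and 0.933 CPM in WT against 19.2 and 11.8 in Mek1/2-tKO, log2 fold change 3.67), a mast cell growth factor, by Lta (log2 fold change 1.85), which encodes lymphotoxin-α, and by Il6 (1.65). Tnf rose by 0.73 on the log2 scale. The lower genes were Il24 (8.61 and 6.53 CPM in WT against 0.645 and 0.851 in Mek1/2-tKO, log2 fold change -3.31), of the IL-10 family, and Lif (195 and 187 against 46.9 and 45.9 CPM, log2 fold change -2.04), which encodes leukemia inhibitory factor.

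Receptor genes of the 10 cytokines included 7 higher and 1 lower among 15 tested of 17, with a median log2 fold change of 0.51. Csf2rb (log2 fold change 2.33), which encodes the β chain of the receptors for IL-3 and GM-CSF, rose alongside Csf2. Csf2rb2 (3.38), counted in this list, encodes a β chain of the IL-3 receptor and not of the GM-CSF receptor. Il17rc, a chain of the IL-17 receptor, had 4 and 0 counts in WT and 12 and 18 counts in Mek1/2-tKO libraries and was called higher (log2 fold change 3.00), but not without WT replicate 2 (2.04), Mek1/2-tKO replicate 1 (3.14) or Mek1/2-tKO replicate 2 (2.82). Ifngr1 (log2 fold change 0.84) and Il10ra (1.33), ligand-binding chains for IFN-γ and IL-10, rose as well. Il2ra, the α chain of the IL-2 receptor, fell from 657 and 648 CPM to 346 and 348 CPM, a log2 fold change of -0.91. Ifngr2 (log2 fold change 0.51), Il4ra (-0.47) and Il21r (-0.36) did not reach a 1.5-fold change, and Il4ra was called lower without Mek1/2-tKO replicate 2 (-0.59). Il22ra1 and Il22ra2, the receptor and the decoy receptor of IL-22, had 0 counts in all 4 libraries, which allows up to 3 counts in each, or 0.159 to 0.184 CPM by library total, for counting error only.

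The transcription factors that define helper lineages moved in both directions. Of 17 tested, 3 were higher and 5 lower, with a median log2 fold change of -0.25. Tbx21, the Th1 factor T-bet, had a log2 fold change of -0.23, while Eomes, its relative in NK and CD8 T cells, rose from 21.8 and 16.6 to 65.6 and 61.7 CPM (1.73). Gata3, the Th2 factor, fell from 36.3 and 35.7 to 7.61 and 9.04 CPM (log2 fold change -2.10). Bcl6, the Tfh factor, rose from 7.43 and 5.54 to 20.7 and 26.0 CPM (1.85), in the same libraries in which Il21 fell. Maf, which binds the Il21 and Il4 promoters in T cells, had a log2 fold change of 0.55 (adjusted p = 0.149, edgeR). Irf4 (-1.51) and Nfil3 (-1.17), factors induced by activation and cytokines, were also lower. Hlx, a partner of T-bet, was higher (1.06), but was not called without WT replicate 2 (0.69) or without Mek1/2-tKO replicate 2 (0.88).

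Of 22 activation-induced transcription factors tested, 10 were lower and 3 higher, with a median log2 fold change of -0.45. Fosl2 (-1.92), Nr4a1 (-1.74) and Nfatc2 (-1.72) had the largest falls by log2 fold change. Nfatc2 encodes the NFAT protein NFAT1. Jun (1.71), Batf3 (1.60) and Fosl1 (0.66) were higher, all of the bZIP class that forms AP-1 or pairs with it. Fosl1 was not called without WT replicate 1 (0.65) or WT replicate 2 (0.67), or with library size alone (0.57).

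Genes that respond to cytokines were read as a further list, though IFN-γ, IL-2 and IL-4 were neutralized in the cultures. Of 16 tested, 8 were higher and 2 lower, with a median log2 fold change of 0.66. Cxcl9 (2.16), a chemokine induced by IFN-γ, Ciita (1.89), the master regulator of MHC class II genes, and Socs1 (1.34), a brake on cytokine signalling, led the rises by log2 fold change. Cish (-0.98) and Bcl2 (-0.67), which are induced by IL-2 through STAT5, fell. Socs2 (0.44), Pim1 (0.04), Bcl3 (-0.05) and Socs3 (-0.47), of the same list, were not called, so the list did not move as a whole. Igtp (log2 fold change 0.01) and Gbp2 (0.18), both IFN-γ-induced GTPases, were not called.

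The labelled cell type was checked against markers. Among 13 genes of alpha-beta T-cell identity, 7 were lower and 1 higher, and their summed level was 3588 and 3606 CPM in WT and 2987 and 2811 CPM in Mek1/2-tKO libraries. Cd4 itself fell from 297 and 289 to 18.8 and 25.1 CPM (log2 fold change -3.73), and Cd28 (-1.99) and Cd5 (-1.55) fell too, while Thy1 rose (0.83). The constant genes Trbc1 and Trbc2 stayed uncalled, with log2 fold changes of 0.16 and -0.03. The constant gene Trac was lower, from 219 and 230 CPM in WT to 121 and 107 CPM in Mek1/2-tKO libraries (-0.98). Cd8a (log2 fold change 2.06) and Cd8b1 (1.53) rose, and their summed level was 59.2 to 67.4 CPM in WT and 214 to 238 CPM in Mek1/2-tKO libraries.

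Markers of other cells that can make these cytokines moved with them. Of 14 gamma-delta T-cell markers listed, 9 were found by symbol among the genes counted. Of these 9, 6 were tested and 6 were higher, and the summed level was 21.8 to 22.6 CPM in WT against 283 to 289 CPM in Mek1/2-tKO libraries. Sox13, with 2 and 4 counts in WT, passed the filter for low counts through the Mek1/2-tKO libraries alone. Blk, a kinase that B cells also express, made up 14.9 and 17.8 CPM of this in WT and 105 and 116 CPM in Mek1/2-tKO libraries. Tcrg-C4 (log2 fold change 5.78), Trdc (5.12), the constant gene of the delta chain, and Tcrg-C2 (4.65) led the rises. Zbtb16 and 5830411N06Rik were too low to be tested, with 0 counts in WT and, in Mek1/2-tKO, 2 and 1 counts of Zbtb16 and 2 and 21 counts of 5830411N06Rik. Cd163l1 was also untested, with 0 and 8 counts in WT and 8 and 9 counts in Mek1/2-tKO libraries. All 11 NK-cell markers were higher, with summed levels of 132 to 136 CPM in WT against 847 to 943 CPM in Mek1/2-tKO. Nkg7 was the largest part, with 62.7 and 65.1 CPM in WT and 436 and 405 CPM in Mek1/2-tKO libraries. Prf1 came next in Mek1/2-tKO, with 31.1 and 31.9 CPM in WT and 197 and 178 CPM in Mek1/2-tKO libraries. The sum was therefore not read as a level of NK cells. Klra8 (4.74), Klra4 (4.25) and Ncr1 (3.73, from 0.769 and 0.829 to 11.5 and 9.84 CPM) led by log2 fold change. Klra8 and Klra4 passed the filter for low counts through the Mek1/2-tKO libraries alone. These lists moved with Ifng, Il17a, Il17f, Il22 and Csf2, and their part in those rises was not tested.

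Of 8 markers of type 2 innate lymphoid cells, which make IL-13, 6 were tested, with 3 higher and 1 lower. Klrg1 (4.27), Kit (3.54) and Il1rl1 (3.43) were higher, Gata3 was lower and Rxrg had 0 counts, and the summed level was 738 to 753 CPM in WT and 980 to 1164 CPM in Mek1/2-tKO, most of it Ly6a. Of 8 mast cell and basophil markers, 5 were tested, with 4 higher and 1 lower. The higher ones, Mcpt8, Cpa3, Ms4a2 and Kit, passed the filter for low counts only with the Mek1/2-tKO libraries, as did Klrg1. Their number was therefore partly set by the filter and is not read as a result. Mcpt8 had 0.103 and 0.0518 CPM in WT and 3.29 and 3.25 CPM in Mek1/2-tKO, Cpa3 had 0.308 and 0 against 3.23 and 4.52 CPM, and Ms4a2 had 0 counts in WT and 10 and 18 counts in Mek1/2-tKO, while Hdc fell (log2 fold change -1.94). Mcpt4 and Tpsb2 had 0 counts in all libraries, and the summed level was 7.43 to 7.98 CPM in WT against 15.2 to 15.6 CPM in Mek1/2-tKO. Their part in the rise of Il13 was not tested.

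B-lineage markers were higher in 10 of 10, with summed levels of 1270 to 1298 CPM in WT against 6674 to 6713 CPM in Mek1/2-tKO. Cd79b (3.73), Ighd (3.68) and Cd79a (3.43, from 56.8 and 58.9 to 629 and 614 CPM) led by log2 fold change. Of 10 myeloid markers, 6 were tested and 6 were higher, with summed levels of 4.36 to 4.77 CPM in WT against 21.2 to 27.0 CPM in Mek1/2-tKO. Some of the 6, such as Adgre1 and S100a8, passed the filter for low counts through the Mek1/2-tKO libraries alone. The count of 6 was therefore partly set by the filter and is not read as a result. Lyz2 had a log2 fold change of 3.97, and Adgre1 and S100a8 had 0 counts in WT and 66 and 83, and 12 and 20 counts in Mek1/2-tKO. B cells can make IL-10 and IL-6, and the part of these cells in the rise of Il10 or Il6 was not tested.

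**Figure D4:**
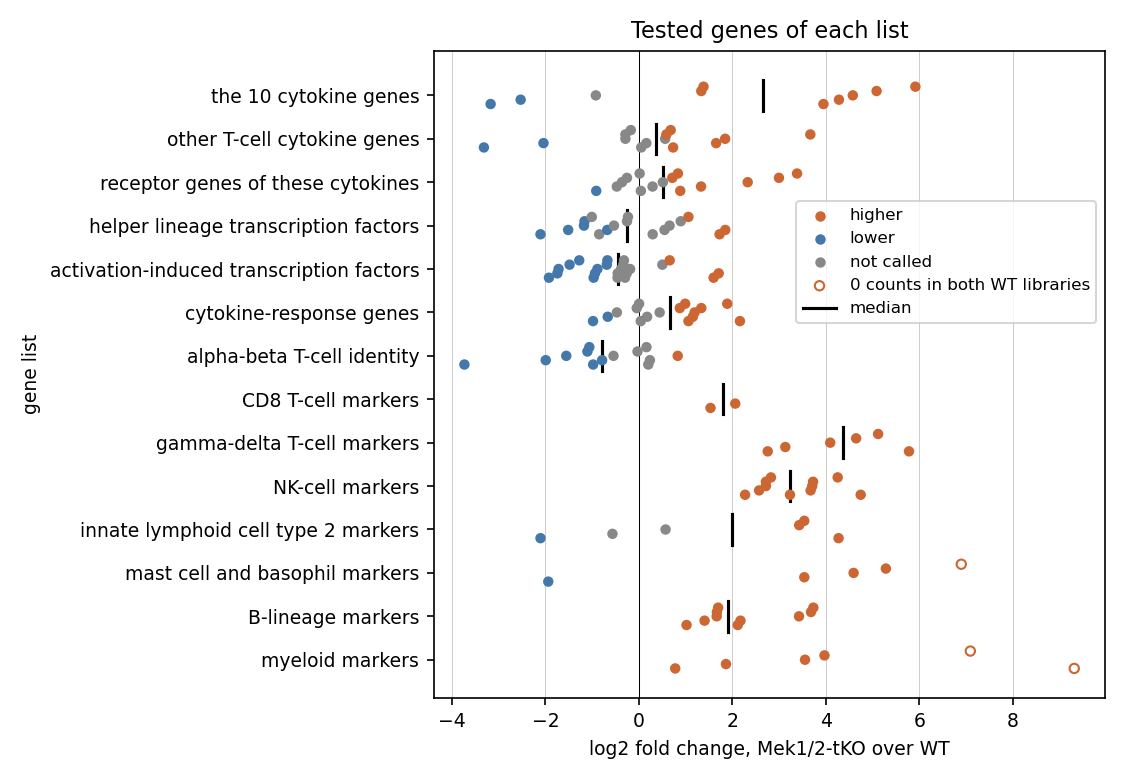
Log2 fold change (Mek1/2-tKO over WT, x axis) of each tested gene in the lists (rows), orange for called higher, blue for called lower, grey for not called, with the median of the list as a bar. Open circles had 0 counts in both WT libraries, so that their fitted value depends on the prior count, and lists that hold one have no median. The cytokine genes reach from -3.17 to 5.91, and all tested gamma-delta T-cell, NK-cell and B-lineage markers are above 0. Genes that were low in WT could be tested through the Mek1/2-tKO libraries alone.

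Genes close to the cytokine genes were read to see whether a locus moved as a whole. Within 200 kb of the 10 genes, 33 other protein-coding genes were tested, and 6 were higher and 11 lower, with a median log2 fold change of -0.43. Around Il2 and Il21 the genes called were all lower. Adad1 is a testis gene whose annotated span overlaps that of Il2, without shared exon bases. It had 1.49 and 1.30 CPM in WT and 0 and 0.319 CPM in Mek1/2-tKO libraries (-2.97, not called without Mek1/2-tKO replicate 1, at -2.10). Fgf2 had a log2 fold change of -2.07, and 4932438A13Rik one of -0.64 (not called without Mek1/2-tKO replicate 1, at -0.50).

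Around Il17a and Il17f, the gene called was Mcm3, a helicase subunit, which fell (log2 fold change -0.64) while the cytokine genes rose. Between Il22 and Ifng, Gm32802 was lower (-1.47), but was not called without WT replicate 1 (-1.18) or Mek1/2-tKO replicate 1 (-1.37). Near Il10, Fcmr, the IgM Fc receptor of B cells, rose from 6.56 and 8.55 to 194 and 200 CPM (4.70), and Il24 of the same cytokine cluster fell (-3.31). Pigr, also there, had a log2 fold change of 1.41 and was not called without WT replicate 1 (1.33), WT replicate 2 (1.49) or Mek1/2-tKO replicate 2 (1.31).

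At the Il4 and Il13 locus, Rad50, a DNA repair gene whose introns hold the locus control region of the Th2 cytokines, fell (log2 fold change -0.85), as did Kif3a (-1.23) and Sept8 (-1.56). Gm12216 (2.40) and Irf1 (0.99), a factor induced by IFN-γ, rose. Beside Csf2, its neighbour Il3 rose from 26.2 and 21.2 to 39.2 and 32.2 CPM, a log2 fold change of 0.59, at the edge of the 1.5-fold threshold, which it missed at a value of 0.44 without WT replicate 2 or Mek1/2-tKO replicate 1, at 0.50 with library size alone and at 0.58 with no filter. Pdlim4 rose (2.18), P4ha2 fell (-1.94), and Fnip1 fell (-0.70) but missed the fold threshold without WT replicate 1 (-0.54) or Mek1/2-tKO replicate 1 (-0.53).

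**Figure D5:**
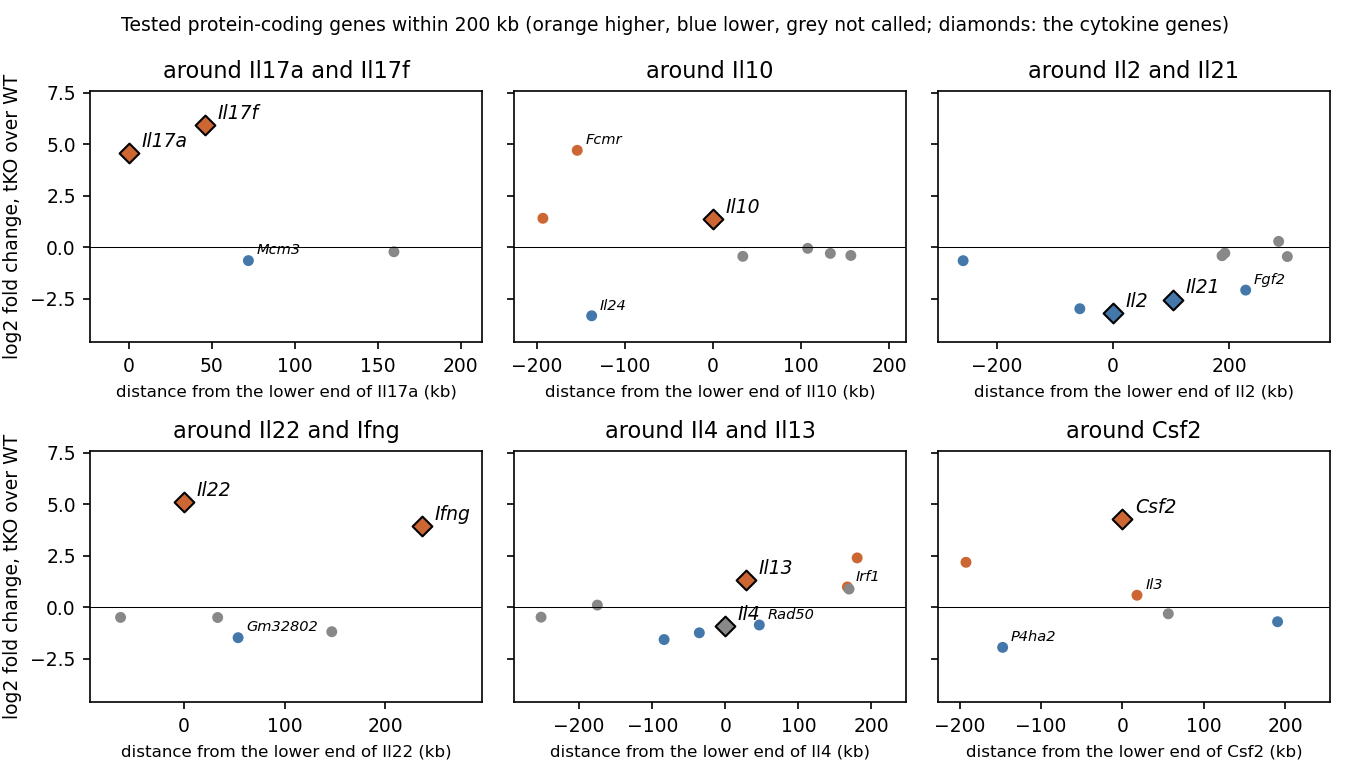
Log2 fold change (y axis) of the cytokine genes (diamonds) and of other tested protein-coding genes within 200 kb (points) against the distance in kb from the lower end of the first gene named (x axis), one panel per locus. Il17a and Il17f lie at 4.58 and 5.91 above Mcm3 at -0.64, and Il2 and Il21 at -3.17 and -2.53 have no called gene above 0 near them.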

How the data were processed

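RNA-seq counts of 2 WT and 2 Mek1/2-tKO libraries were analysed, and the sources do not say whether these came from separate cultures. Per the study's methods, the authors trimmed reads with Trimmomatic 0.36, mapped them to GRCm38 with a tool written as STRA, kept uniquely mapped reads and counted them on genes with featureCounts (Subread 1.5.1), and the deposited values are raw counts per gene with no normalization. A stranded kit was used, but which annotation release was used and whether counting used the strand were not given in the sources used here. Antisense partners were therefore read as uncertain: exons of Gm12534 cover 8.92% of Il21 and exons of Gm12223 cover 12.0% of Csf2 on the other strand, at 0 and at most 5 counts.

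Symbols were matched to 54723 of 54752 identifiers. Counts were fitted in R 4.3.3 by the robust quasi-likelihood test of edgeR 4.0.16 after TMM scaling and filterByExpr, with Benjamini-Hochberg adjustment over 14330 genes, and DESeq2 1.42.0 was an alternative, with others given in the closing section. RPKM used the exon lengths deposited with the counts. The script was tested on simulated data. Replicates differed by more than sampling noise (chi-square per gene 4.19 in WT and 10.9 in Mek1/2-tKO), and the biological coefficient of variation was 0.0918. Plots were made with matplotlib 3.10.9, ratios with scipy 1.17.1 and tables with pandas 2.3.3 in Python 3.11.15.

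The cytokine genes and the lists were chosen with earlier results of these data known. Named were all 10 cytokine genes, the targeted genes, the 3 genes with the largest fold change per list and direction with defining receptors, factors and markers, called neighbours (up to 3 per locus) and nearest profiles. Il3, Tnf, Il10ra, Irf1, Rad50, Igtp, Gbp2, Blk, Trac, Trbc1 and Trbc2 and the genes listed at 0 were added after their values were seen. So were Socs2, Socs3, Pim1, Bcl3, Nkg7, Prf1, Sox13 and Cd163l1. One gene is counted in its list but is not reported here by name.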

Additional observations from a re-analysis of the deposited data

How the results depend on the processing

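The 7 higher and 2 lower cytokine genes were called in all 13 alternatives, except that Il17f was not tested with at least 10 counts in every library. Il4 was called lower with the likelihood-ratio test (log2 fold change -0.92) and with library size alone (-1.01), and ranged from -1.40 to -0.55 with each library left out, so that 3 genes were then called lower in 3 settings. The cause was not tested. With the replicate block, which assumes that equal numbers pair libraries, 7 were higher and 2 lower, and 2652 genes were higher and 2300 lower over all genes in place of 2768 and 2355. The deviations of same-numbered libraries correlated at -0.03, so the numbers are not shown to pair them. No fold threshold gave 3983 higher and 3903 lower genes, and a 2-fold threshold gave 1725 and 1040. Scaling by library size alone shifted the median log2 fold change by -0.08. Leaving out a library leaves 1 sample in a genotype, which is assumed to vary like the other genotype.

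With no fold threshold, the lower genes numbered 4 of the receptors, 8 of the lineage factors, 16 of the activation factors and 2 of the type 2 innate lymphoid markers, and 2 T-cell identity genes were higher. With a 2-fold threshold, 3 other cytokines and 4 receptors were higher, no T-cell identity gene was (0), and the lower genes numbered 0 receptors, 5 activation factors and 0 cytokine-response genes. Requiring 10 counts in every library removed genes that are low in WT and left 0 mast cell and 2 myeloid markers higher. Library size alone put 2 type 2 innate lymphoid markers lower. With a library left out, 1 to 2 receptors and 1 to 2 type 2 innate lymphoid markers were lower. Of 832 values of 77 other named genes, 810 kept their direction and call, and the rest are given beside the genes.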
